A study of Mus musculus with 8 samples.

Results

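Peaks of N6-methyladenosine (m6A) on the transcripts of cyclins, cyclin-dependent kinases (CDKs), CDK inhibitors and E2F factors were examined in mouse embryonic fibroblasts (MEFs). The genes were taken by symbol: Ccn followed by a letter from a to l, Cdk followed by a digit, Cdkn, or E2f followed by a digit. Their peaks numbered 185 of the 38705 in the 4 peak lists, and merging peaks that overlap between libraries gave 111 regions of 21168. A peak was listed for 52 genes, out of 67 annotated coding genes with such a symbol and 9779 genes with a peak in all.

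The study compared MEFs kept untreated in full medium (control) with MEFs kept for 2 h in nutrient-deprived medium, a HEPES-buffered Hank's balanced salt solution (starved). All MEFs were wild-type C57BL/6 cells from embryos at 13.5 days post coitum, used at passage 5 to 6, so both groups share strain, embryo age and culture age and differ in the medium. Each group had 2 replicates, and each replicate had an m6A immunoprecipitation (IP) and an input library, which made 8 samples. The inputs enter here only through the peak calling of the authors. The study describes the replicates as biological, and the sources used here do not say whether they came from separate embryos or cultures, so p-values measure only the spread between these samples. With 2 libraries against 2, the exact permutation test (two-sided) cannot give a p below 0.33.

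Cyclins bind CDKs and switch them on. Cyclins D, E, A and B with Cdk4, Cdk6, Cdk2 and Cdk1 carry cells through the division cycle. Cyclins C, H, K and L, and the kinases Cdk7, Cdk8, Cdk9, Cdk11, Cdk12, Cdk13 and Cdk19, act on RNA polymerase II, the Mediator complex or splicing. CDK inhibitors hold the cell-cycle kinases in check, and E2F factors, released when the retinoblastoma protein is phosphorylated, drive or repress the genes of DNA replication. m6A is the most common internal modification of mRNA, is placed in a short motif with GGAC as a frequent core, is enriched near stop codons and in long exons, and is bound by reader proteins that alter the decay or translation of the transcript.

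The value of a peak is its fold enrichment, the ratio of IP reads to the local background in the input as the authors deposited it. The number of reads behind a peak is unknown, no listed peak of the series was below a fold enrichment of 2, and a region without a peak in a library is one where none was called, not one shown to lack m6A. A peak also needs a transcript, and transcript level and methylation cannot be told apart where a peak is missing.

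The sequences that carry the results are shown first. Each is a 30-base window of the transcript, read 5′ to 3′ in DNA letters from GRCm38.p6 (mm10), with the GGAC motif in capitals. Where a region holds several GGAC, the window is the one inside the peaks of the most libraries and then nearest to the centre of the strongest peak. The first pair are the regions called in all 4 libraries in which both starved values were below both control values, from exon 2 of Cdk12 (chr11:98210798-98210827, plus strand) and the last exon of Ccnl2 (chr4:155823552-155823581, plus strand).
Cdk12 region 2: cacagggaacaaaGGACgttaaacctgtag
Ccnl2: cacgagagcggacGGACaattctggaaaat

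The windows of the other 3 regions called in all 4 libraries come from Cdk9, Cdkn2b and Cdk2ap1. That of Cdk9 lies within 100 nt of the stop codon (chr2:32707834-32707863, minus strand). Those of Cdkn2b (chr4:89306776-89306805, minus strand) and Cdk2ap1 (chr5:124345950-124345979, minus strand) lie in the 3′ UTR.
Cdk9 region 1: atgtgacatgatgGGACatttgagattttc
Cdkn2b region 1: cctctacctttcaGGACgcggtgtaaaata
Cdk2ap1: caaaagattgggaGGACattttgcagtaac

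Regions found in the starved pair alone are shown by Ccnd2 (chr6:127129652-127129681, minus strand), E2f1 (chr2:154560696-154560725, minus strand) and E2f3 (chr13:29908533-29908562 and chr13:29910027-29910056, minus strand). Those found in the control pair alone are shown by Cdk13 (chr13:17718751-17718780, minus strand) and Cdkn3 (chr14:46767248-46767277, plus strand).
Ccnd2: tcttttgccagttGGACacaggtgaacggc
E2f1 region 2: actgtgactttggGGACctgacccctctgg
E2f3 region 2: agtgggtgagtttGGACtaagggaggtcag
E2f3 region 3: gtccaaccttgaaGGACcttttgtgaactt
Cdk13 region 4: gacctagattatcGGACagaaaaccagcat
Cdkn3: tcccaaaccttctGGACctctaccaacaat

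The window of Cdkn1b, one of the autophagy-related genes that the study examined, lies within 100 nt of the stop codon (chr6:134922144-134922173, plus strand). That of E2f7 lies in exon 7 of 13 (chr10:110767222-110767251, plus strand) under the peak with the highest fold enrichment of all 185. In both, the base after GGAC is T.
Cdkn1b: cctgcagaccccaGGACtgctggcagatta
E2f7 region 2: ggatcgggcctgtGGACttcagctccattg

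The 4 IP libraries listed 54, 38, 46 and 47 peaks on these genes (control 1, control 2, starved 1, starved 2, the order used throughout). The control mean was 46 ± 11.3 and the starved mean 46.5 ± 0.707 (SD, n = 2 each). The difference of 0.5 peaks was far within the spread of the control pair (exact permutation test, p = 1). The genes with a peak numbered 36, 33, 32 and 32.

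Peaks on these genes were weaker than peaks in general. Their median fold enrichment was 10.7, 9.70, 11.3 and 8.42, against 12.2, 12.3, 14.6 and 14.7 over all peaks of the same libraries, so that it lay below the series median in all 4. Over all peaks the median was higher in both starved libraries, by 0.26 on the log2 scale (exact permutation test, p = 0.33, n = 2 per group). For these genes the difference was -0.06 (exact permutation test, p = 1, n = 2 per group), and the groups overlapped. The score of a peak, minus 10 times log10 of its p-value, was 3100 or more in 15.1% ± 2.66 (control) and 28.2% ± 0.556 (starved) of all peaks, and in 30 peaks of these genes (5, 4, 15 and 6).

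Most regions were seen once. Of the 111 regions, 62 (55.9%) were called in 1 library, 29 (26.1%) in 2, 15 (13.5%) in 3 and 5 (4.50%) in all 4, while over the series 10.7% of regions were called in all 4. Control 1 alone gave 24 of the 62 regions seen once, control 2 gave 7, starved 1 gave 14 and starved 2 gave 17. Of the 29 regions called in 2 libraries, 22 were called in 1 control and 1 starved library, 3 in the control pair and 4 in the starved pair. Over the series 4437 regions were called in 2 libraries, 879 of them in the control pair and 677 in the starved pair.

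**Figure D1:**
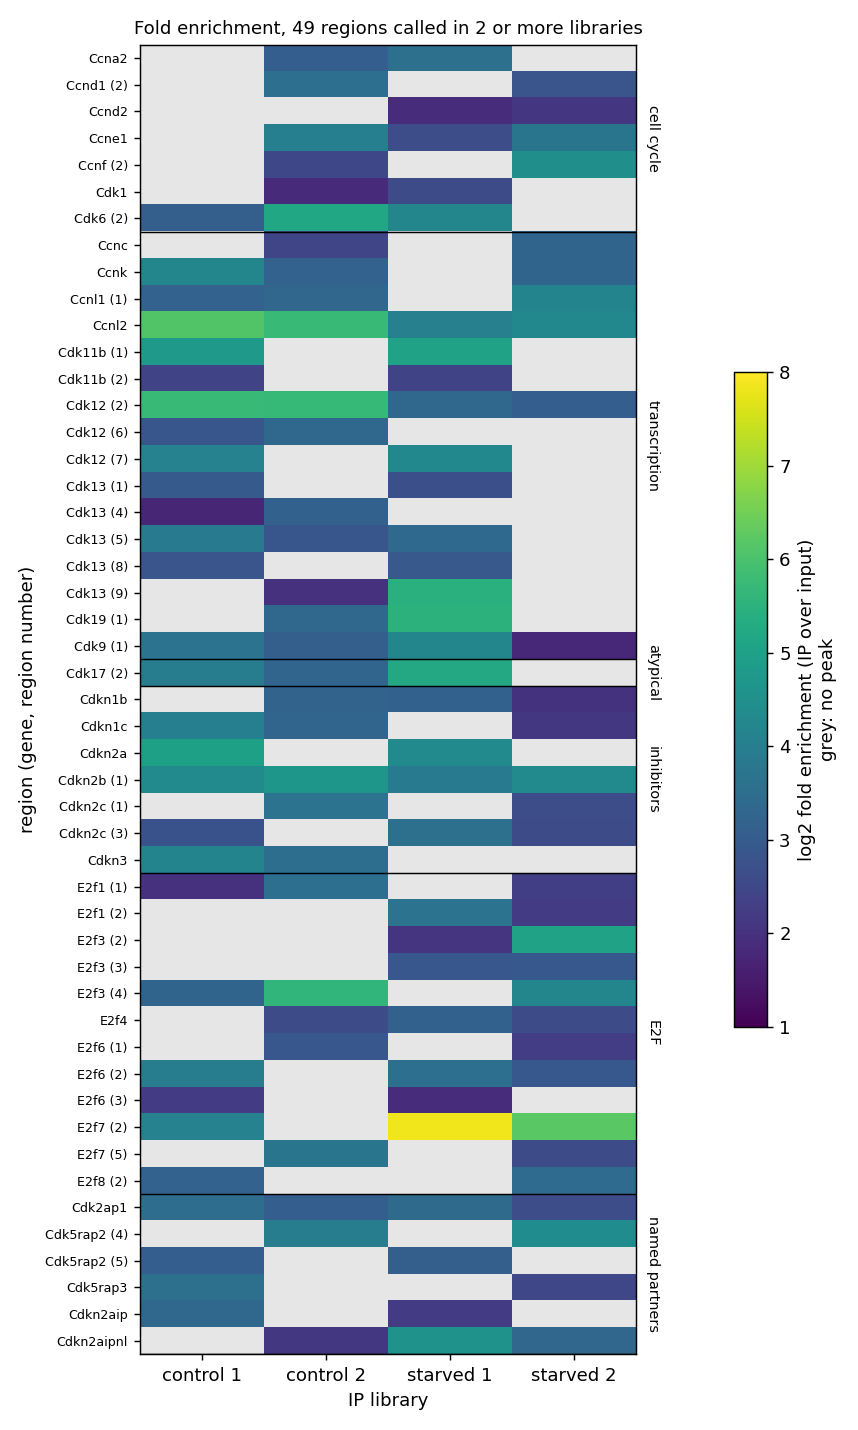
Fold enrichment (colour, log2 of IP over input) of the 49 regions called in at least 2 of the 4 IP libraries (columns), grouped by the role of the gene (rows), where a number after a gene is the region's number along the chromosome and grey marks a library without a peak. The 5 rows without grey are the regions called in all 4 libraries, and E2f7 region 2 in starved 1 is the brightest cell at 232.67.

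By role, the share of genes with a peak in every library ran from 4 of 7 E2F genes and 5 of 11 transcriptional genes to 2 of 10 cell-cycle genes, 2 of 8 inhibitors, 2 of 8 named partners and 0 of 8 atypical genes. Over all of these genes it was 15 of 52 (28.8%), beside 29.2% over the series. Transcriptional and E2F genes carried 5.18 and 5.29 peaks per gene, cell-cycle genes 2.80, inhibitors and named partners 2.88 each and atypical genes 2.13, where the series had 3.96. The counts were not scaled to transcript length.

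**Figure D2:**
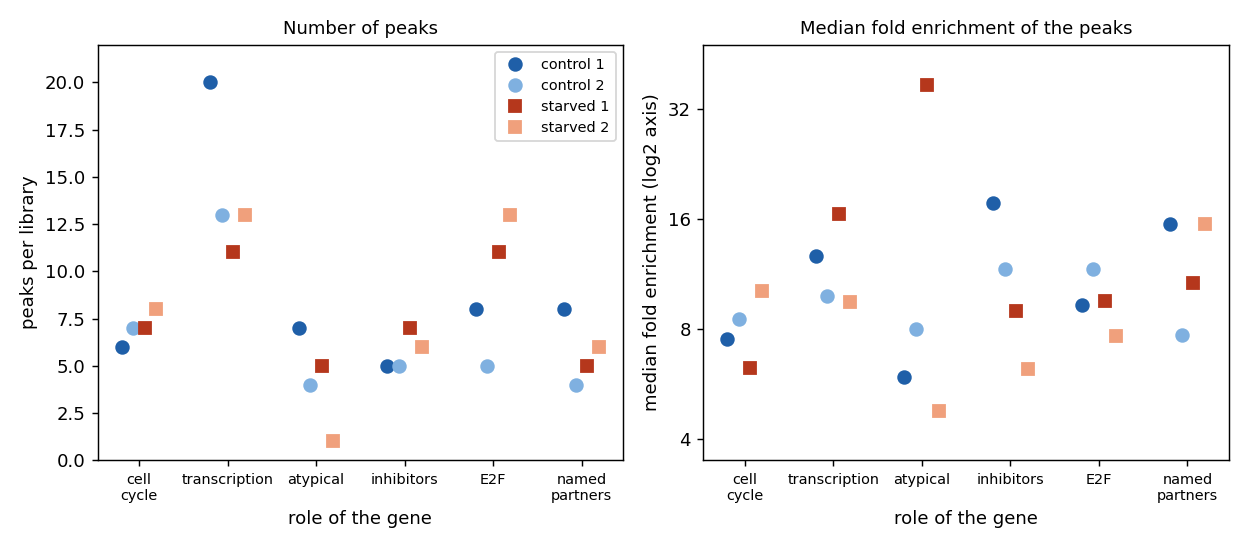
Number of peaks (left, linear axis) and median fold enrichment of those peaks (right, log2 axis) for each role of gene, with 1 point per IP library (circles control, squares starved). E2F peaks number 8 and 5 with full medium against 11 and 13 after starvation, and the median of the inhibitors is 17.7 and 11.7 with full medium against 8.94 and 6.22 after starvation.

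Among the cell-cycle genes, no region was called in all 4 libraries. Peaks were listed for 10 of 15 annotated genes, in 19 regions, and Ccna1, Ccnb2, Ccnb3, Ccne2 and Cdk4 had none. Each library called 6, 7, 7 and 8 peaks. The cyclin D genes, which link growth signals to the cycle, differed from each other. Ccnd2 had 1 region, 1936 bases at its widest, in the 3′ UTR, with a fold enrichment of 3.67 in starved 1 and 4.30 in starved 2 and no peak in either control library. Both values were among the low ones, with a deposited FDR of 68.41% and 58.71%. Ccnd1 had a region in the 5′ UTR in control 2 (11.67) and starved 2 (7.22), 1 library of each group, and a weak peak of 3.10 in control 1 alone. Ccnd3 had 5 regions, each in 1 library, at fold enrichments from 2.88 to 16.94.

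Ccne1, which encodes the cyclin that activates Cdk2 before DNA synthesis, had 1 region, in the last exon. It was called at 16.10 in control 2, 6.25 in starved 1 and 13.06 in starved 2. The peak centres in these libraries lay 327, 359 and 55 nt after the stop codon, so the starved 2 peak was offset from the others. The region of Ccna2, the cyclin of DNA synthesis and mitotic entry, was called at 8.53 in control 2 and 11.95 in starved 1, and overlaps exons of Exosc9 on the opposite strand. Ccnb1 had a single peak of 6.49 in control 2. Ccnf, the substrate receptor of a ubiquitin ligase, had a peak in every library but in 3 different regions, and the region at its stop codon was called at 5.72 in control 2 and 22.25 in starved 2. None of these cyclins separated the groups.

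Among the kinases of the cycle, Cdk6 had the most regular signal. Its region at the stop codon reached 8.75, 35.80 and 18.57 in control 1, control 2 and starved 1, and was not called in starved 2, where a peak of 27.32 lay in the 5′ UTR instead. Cdk1, the mitotic kinase, had a region at the stop codon at 3.57 in control 2 and 6.01 in starved 1. Cdk2 had 2 peaks, of 6.24 in the 3′ UTR and 4.29 in the 5′ UTR, both in control 1.

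Transcriptional cyclins and CDKs held 57 of the 185 peaks, in 32 regions on 11 of 12 genes, and 3 of the 5 regions called in all 4 libraries. Cdk7 had no peak. The libraries called 20, 13, 11 and 13 of these peaks, a control mean of 16.5 ± 4.95 and a starved mean of 12 ± 1.41 (SD, n = 2 each; exact permutation test, p = 0.667).

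Cdk12 encodes the kinase that, with cyclin K, phosphorylates elongating RNA polymerase II and sustains the expression of long DNA repair genes. Its region 2 (chr11:98210361-98211232) lies in the coding sequence of exon 2 of 14, an exon of 876 nt, 3187 nt before the stop codon. The fold enrichment was 53.96 in control 1, 51.73 in control 2, 10.06 in starved 1 and 8.60 in starved 2. Both control values were thus about the same, and both starved values lay well below them. The difference of the means was -2.51 on the log2 scale, or 5.68-fold between control and starved, beside SDs of 0.04 and 0.16 (n = 2 each). It stood at rank 18 from the lowest among the 2257 regions of the series with a peak in all 4 libraries, whose median difference was 0.10. The peaks started at the same base in all 4 libraries and spanned 450, 594, 872 and 340 bases. The printed GGAC lies inside the peaks of control 2 and starved 1 and outside those of control 1 and starved 2, and the region holds 2 GGAC in all. The starved 2 peak had a deposited FDR of 21.5%, so the comparison is lost when peaks must have an FDR under 20%.

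Ccnl2 encodes cyclin L2, a nuclear cyclin of splicing speckles that binds Cdk11. Its only region (chr4:155823343-155823935) lies in the last of 11 exons, 124 nt before the stop codon at the strongest peak. The fold enrichment was 68.29, 53.52, 16.51 and 19.35, so both starved values were again below both control values. The difference was -1.76 on the log2 scale, or 3.38-fold between control and starved, with SDs of 0.25 and 0.16 (n = 2 each), at rank 85 from the lowest of 2257. The 4 peaks overlapped over most of their length, all contained the printed GGAC, and 6 GGAC lie in the region.

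**Figure D3:**
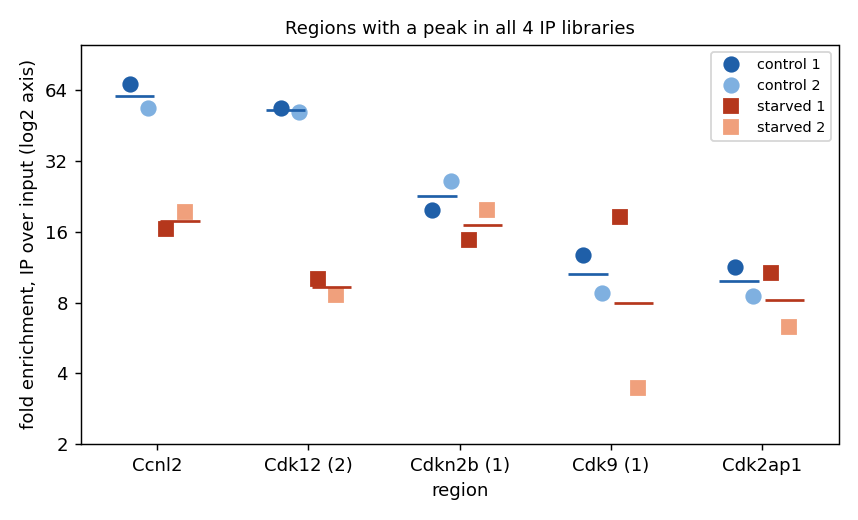
Fold enrichment (IP over input, log2 axis) of the 5 regions called in all 4 IP libraries, with 1 point per library (circles control, squares starved) and a line at the mean of the log2 values of each group. In Ccnl2 and Cdk12 region 2 both starved points lie below both control points, and in the other 3 regions the points of the groups interleave.

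Over the 5 regions called in all 4 libraries, 2 had both starved values below both control values, where 18% of the 2257 such regions in the series did, and 0 had both above, where 22.9% did. With 5 regions these counts say little about the genes as a set. The exact permutation test of a single region of this kind gives p = 0.33, the smallest it allows, and no region was tested beyond that. The remaining 3 did not separate the groups. Cdk9, the kinase of P-TEFb that releases paused polymerase, had a region across the stop codon at 12.73, 8.77, 18.45 and 3.47. Both the highest and the lowest value were in a starved library. The peak centres lay 129, 123, 88 and 102 nt after the stop codon, so only that of starved 1 was within 100 nt. The Cdk9 difference of -0.40 was small beside a starved SD of 1.70 (log2 scale, n = 2).

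The cyclin partners and neighbours of these kinases gave no further separation. Ccnk, the partner of Cdk12 and Cdk13, had a region in the coding sequence of exon 3 of 12 at 18.69, 9.19 and 9.53 in control 1, control 2 and starved 2. Ccnl1, the paralog of Ccnl2, had its region at the stop codon at 9.20, 9.93 and 17.82 in the same 3 libraries, so that its starved value was above both control values where those of Ccnl2 were below. A second peak of Ccnl1, of 9.87 in control 2, lies in a stretch with a near-identical copy in the transcript Gm37305. Ccnh, a subunit of the CDK-activating kinase, had 1 peak of 36.31 in control 1, and Ccnc, the Mediator cyclin, had 5.47 in control 2 and 9.48 in starved 2.

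Cdk12 and its paralog Cdk13 together held 17 of the 32 transcriptional regions. The 13 peaks of Cdk12 were spread as 6, 3, 2 and 2 over the libraries, and the 15 of Cdk13 as 6, 3, 4 and 2. For Cdk12 both control libraries had more peaks than either starved one, and for Cdk13 the groups overlapped. Cdk12 region 6, in the coding sequence of exon 13 of 14, was called at 7.37 and 10.07 in the control libraries and in neither starved one. Cdk13 region 4, in the coding sequence of the last exon, was called at 3.39 and 9.04 in the control libraries and in neither starved one. Cdk13 region 5, in exon 13, was called at 15.10, 7.38 and 10.46 in control 1, control 2 and starved 1. Cdk19 and Cdk11b, the Mediator and cyclin L kinases, had their strongest shared regions in the 5′ UTR, at 10.15 in control 2 and 44.92 in starved 1 for Cdk19, and at 27.40 in control 1 and 32.53 in starved 1 for Cdk11b.

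Cell-cycle and transcriptional genes were set against each other library by library. The median log2 fold enrichment was 2.89, 3.09, 2.64 and 3.28 for cell-cycle peaks and 3.67, 3.30, 4.05 and 3.24 for transcriptional peaks. The cell-cycle median was lower in 3 of 4 libraries, by -0.78, -0.21 and -1.40, and 0.03 higher in starved 2. The mean difference was -0.59 ± 0.64 (SD, n = 4 libraries), no larger than its spread. It moved by -0.19 between control and starved (exact permutation test, p = 1, n = 2 per group), so that no shift of one set against the other was detectable.

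The sets differed in where their peaks lie. Of 31 transcriptional regions that could be placed on a coding transcript, 17 had their strongest peak centred in the coding sequence, more than 100 nt from the stop codon. Of 15 such cell-cycle regions, 1 did, in Ccnd3, while 4 were centred within 100 nt of the stop codon, 7 in the 3′ UTR and 3 in the 5′ UTR. Those 3, in Ccnd1, Cdk2 and Cdk6, are 381 to 472 bases wide, so parts of them may lie in the coding sequence. Over the 4 libraries the coding share was 53.5% ± 13.9 of transcriptional peaks and 3.57% ± 7.14 of cell-cycle peaks (SD, n = 4), and the lowest transcriptional library, at 38.5%, was above the highest cell-cycle library, at 14.3%. Over the series the share was 46.1% ± 1.05. Cdk12 and Cdk13 make up most of the transcriptional coding regions, so these are not independent genes.

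**Figure D4:**
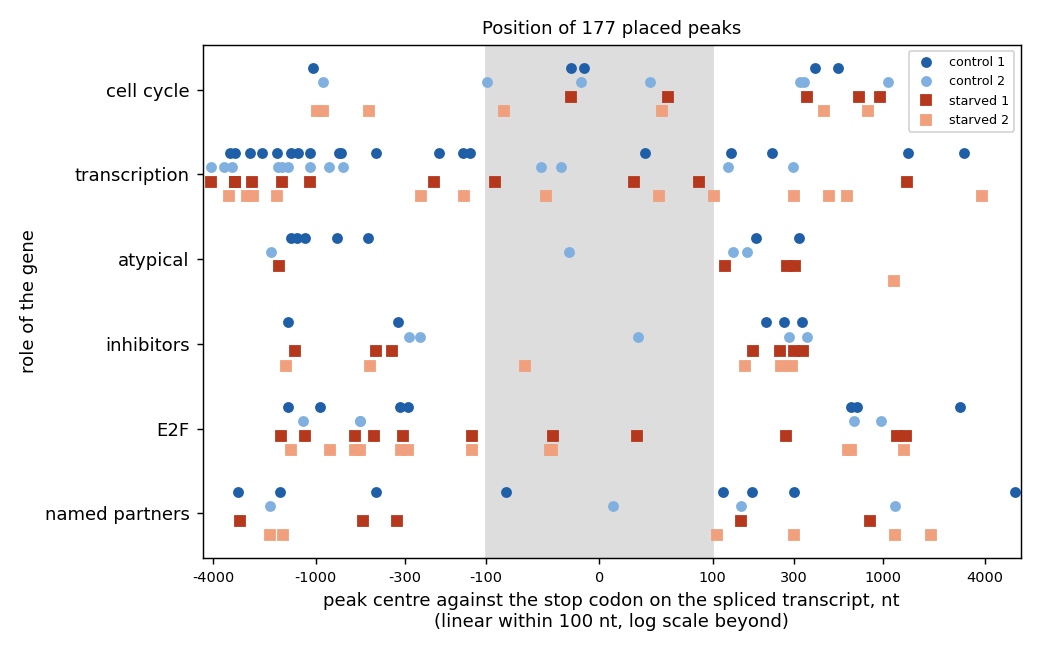
Distance of the centre of 177 placed peaks from the stop codon along the spliced transcript (horizontal axis, nt, linear within 100 nt and logarithmic beyond, negative before the stop codon), by role of the gene and library (circles control, squares starved). The grey band marks 100 nt on either side of the stop codon, and the transcriptional row has most of its points to the left of the band while the cell-cycle row has most inside or to the right of it.

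The coding share of the transcriptional peaks was 68.4% and 61.5% in control libraries and 45.5% and 38.5% in starved ones, or 65.0% ± 4.87 against 42.0% ± 4.94 (SD, n = 2 each; exact permutation test, p = 0.33). The groups did not overlap. In counts this was 13 of 19, 8 of 13, 5 of 11 and 5 of 13 placed peaks. Most of these coding peaks were on Cdk12 and Cdk13, which had 6, 3, 2 and 2 and 6, 3, 4 and 2 peaks in the libraries. The fall in coding share cannot be told apart from the number of peaks listed on Cdk12 and Cdk13. Over all peaks of the series the coding share was 45.7% ± 1.34 in control and 46.5% ± 0.954 in starved libraries. Across the 6 roles and 12 measures per library, 72 such comparisons were made and 18 (25.0%) reached the smallest p the design allows. Values unrelated to the groups and without ties reach that p at a rate of 0.33, so the share of 25.0% was not above it. The smallest value adjusted over the 72 (Benjamini-Hochberg) was p = 1 for these exact tests.

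Atypical cyclins and CDKs, which serve roles outside the core cycle such as neuronal and membrane functions, had the least repeatable peaks. Of 15 regions on 8 of 13 genes, 14 (93.3%) were called in 1 library, beside 63.2% of cell-cycle regions and 56.2% over the series. The exception was Cdk17, in the 3′ UTR 119 nt after the stop codon, at 15.20, 9.73 and 37.28 in control 1, control 2 and starved 1. The libraries called 7, 4, 5 and 1 of the 17 atypical peaks, so repeatability can hardly be judged from them. Ccng1, a target of p53, had only the weak peaks of 2.37 and 2.89, both in control 1, while Ccnj reached 79.31 in control 1 alone. Ccnjl, Cdk5, Cdk10, Cdk15 and Cdk20 had none.

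All 8 CDK inhibitor genes had a peak, in 11 regions. Cdkn2b, which encodes an inhibitor of Cdk4 and Cdk6, had the only inhibitor region called in every library (chr4:89306289-89307314), in the 3′ UTR at 19.82, 26.25, 14.84 and 19.88. These values interleave between the groups, and all 4 peaks had a score of 3100. The difference of -0.41 (log2 scale) was not much above the SDs of 0.29 and 0.30 (n = 2 each). Cdkn2a, its neighbour, which encodes Ink4a and Arf in different reading frames, had a 3′ UTR region at 31.72 in control 1 and 20.34 in starved 1.

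Cdkn1b encodes p27, which binds and inhibits cyclin E and Cdk2. It had 1 region (chr6:134921956-134922792), across the stop codon and into the 3′ UTR, at 9.32 in control 2, 8.94 in starved 1 and 4.07 in starved 2. Control 1 had no peak there. The 3 values were moderate, with a deposited FDR of 30.02%, 22.50% and 48.54%, and the printed GGAC lies inside all 3 peaks. The study names Cdkn1b among hypermethylated genes bound more by the m6A reader YTHDF3 under starvation. It reported no significant effect of YTHDF3 silencing or overexpression on Cdkn1b expression. The study lists a western blot antibody for Cdkn1b and no PCR primers, so this appears to be protein, not RNA or m6A. In the peak values used here, the control and starved groups could not be compared in fold enrichment, since 1 control value is missing.

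Other inhibitors were less regular. Cdkn1c, the third member of the Cip/Kip family, had a 3′ UTR region at 16.14, 9.67 and 4.40 in control 1, control 2 and starved 2. Cdkn1a, which encodes p21, had 1 weak peak of 3.43 in starved 1, in the coding sequence. Cdkn3, a phosphatase that acts on Cdk2, was called at 17.70 and 11.65 in the control libraries and in neither starved one, in the coding sequence of exon 5 of 8. Cdkn2c had 3 regions, and the one in its 5′ UTR was called at 6.77, 12.06 and 6.17 in control 1, starved 1 and starved 2. Cdkn2d had 5.65 in starved 1.

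The median fold enrichment over the inhibitor peaks was 17.7 in control 1, 11.7 in control 2, 8.94 in starved 1 and 6.22 in starved 2. The groups did not overlap, at 14.7 ± 4.28 against 7.58 ± 1.93 (SD, n = 2 each; exact permutation test, p = 0.33). Each median rests on 5, 5, 7 and 6 peaks that are not the same regions in each library, and Cdkn2b, the only inhibitor region called in all 4, did not separate the groups.

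E2F genes had more peaks in starved than in control libraries. The counts were 8, 5, 11 and 13, or 6.5 ± 2.12 against 12 ± 1.41 (SD, n = 2 each; exact permutation test, p = 0.33). Over the series the counts went the other way, with 9987 ± 164.0 peaks per control and 9366 ± 553.7 per starved library. The number of E2F genes with a peak was 6, 5, 5 and 6, and each E2F gene with a peak in a starved library also had one in a control library. Peaks with a score of 3100 or more numbered 0, 0, 3 and 3, a share of 0% (control) against 25.2% ± 2.97 (starved, SD, n = 2), where the series share also differed between the groups, as given above. Peaks with an FDR under 20% numbered 0, 3, 5 and 4, or 0%, 60%, 45.5% and 30.8% of the E2F peaks, so that the shares of the groups overlapped. E2f2 had no peak, and none of the 20 E2F regions was called in all 4 libraries.

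Regions found in the starved pair alone, by which is meant a peak in starved 1 and starved 2 and none in control 1 or control 2, numbered 4 of 111 (3.60%), where the series had 3.2%, and 3 of the 4 were in E2F genes. E2f1, an activator of replication genes, had such a region at the stop codon at 12.77 and 4.78. E2f3, another activator, had a pair of them, at 4.23 and 32.77 in the 3′ UTR 1345 nt after the stop codon, and at 7.47 and 7.68 in the coding sequence 121 nt before it. The fourth was that of Ccnd2. Regions found in the control pair alone numbered 3 (2.70%), where the series had 4.15%, and were those of Cdk12, Cdk13 and Cdkn3 above. Both shares were near those of the series. Each of these 7 regions had at least 1 peak with a deposited FDR above 20%, and none of them keeps its place when peaks must be under it.

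E2f1 and E2f3 also had regions that did not follow the groups. E2f1 region 1, in the 3′ UTR, was called at 4.0, 11.70 and 4.96 in control 1, control 2 and starved 2, and a peak of 55.64 in the 5′ UTR was called in starved 1 alone. E2f3 region 4, in the first exon, was called at 9.56, 48.45 and 18.67 in control 1, control 2 and starved 2. The control 2 peak was centred in the coding sequence and the other peaks in the 5′ UTR. The peaks of control 1 and control 2 did not overlap and were joined only through that of starved 2.

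The single strongest peak of all these genes lay on E2f7, an atypical E2F that represses replication genes. Its region 2, which overlaps exon 7 of 13, was called at 17.09 in control 1, 232.67 in starved 1 and 74.02 in starved 2, and not in control 2. Both starved values were above the only control value, and the starved peaks had a score of 3100. Further peaks of 71.47 in starved 1 and 67.91 in starved 2 lay in other regions, so that E2f7 had 1 peak in each control and 3 in each starved library. Region 2 spans 294 bases and the exon only 135 nt, so much of the region lies outside the exon, as do the centres of 2 of its 3 peaks. E2f8, its paralog, had 9.12 in control 1 and 10.90 in starved 2 in 1 region and 31.03 in starved 2 in another. The E2f7 values were singled out after they were seen.

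The remaining E2F genes had moderate values. E2f4, a repressor in resting cells, had a coding region at 6.06, 8.97 and 6.23 in control 2, starved 1 and starved 2. E2f6, which represses through Polycomb proteins, had 4 regions, of which region 2 was called at 15.45, 11.87 and 7.58 in control 1, starved 1 and starved 2. E2f5 had 1 peak of 19.79 in control 1.

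Genes that share only the start of the symbol, here called named partners, had 14 regions on 8 of 11 genes. Cdk2ap1, which binds Cdk2, had its 3′ UTR region (chr5:124345417-124346154) at 11.34, 8.56, 10.69 and 6.30. Its values interleave, and the stretch has a near-identical copy in Gm12184, so reads may be shared. Cdkn2aipnl had a 3′ UTR region at 4.38, 24.03 and 9.93 in control 2, starved 1 and starved 2. Cdk5rap2, a centrosomal protein, had 5 regions with fold enrichments from 8.51 to 90.67, and Cdk5rap1, a tRNA-modifying enzyme, had 90.94 in starved 2 alone. Ccnb1ip1, Cdk2ap2 and Cdk5r2 had none.

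GGAC lay inside 82 of the 105 placed regions, and GGACT inside 41. Within 200 bases at the peak centre, GGAC was found on the transcript strand in 67.9% ± 5.94 of placed peaks of these genes, beside 63.7% ± 1.18 over the series (SD, n = 4 libraries). Inhibitors were at 82.3% ± 2.79 and transcriptional genes at 74.8% ± 9.07, and E2F genes at 49.1% ± 10.5 and cell-cycle genes at 55.0% ± 18.3. Peaks within 100 nt of the stop codon made up 37.9% ± 6.34 for cell-cycle genes and 15.2% ± 5.47 over all of these genes, beside 12.7% ± 0.379 over the series. Between control and starved libraries the share over these genes was 14.4% ± 9.34 and 15.9% ± 0.512 (SD, n = 2 each; exact permutation test, p = 1).

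Other genes of the pathway were read from a list of 41. Of these, 34 had a peak and 12 had one in every library, in 81 regions. Of the 10 regions called in all 4 libraries, 2 were lower in both starved libraries, beside 18% of such regions over the series. These were in Lin54, of the DREAM repressor complex, and in Ccnyl1. A single region (1.23%), in Med13, was found in the starved pair alone, beside 3.2% over the series, and 5 (6.17%) were found in the control pair alone, beside 4.15% over the series, in Rbl2, Tfdp1, Rbbp4, Ccnt1 and Med13. Rb1, Lin37, Cdc25c, Plk1, Cdc20 and Trp53 had no peak, and the listed name Cdt2 matched none.

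The labelled cell type was read from marker transcripts with a peak. Of 9 fibroblast genes 6 had one, with Pdgfra at 15 peaks and Pdgfrb at 9 and both in every library, while Col1a1, Vim and Dcn had none. Of 6 genes of epithelial, blood and endothelial cells, none had a peak.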

How the data were processed

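MeRIP-seq peak lists of the 4 IP libraries were used, and samples were grouped by their titles. Per the methods, the authors used Cutadapt for trimming and HISAT2 2.0.4 for alignment to mm10, called peaks of each IP library against its input with MACS2 and kept peaks on mRNA exons. The column names are those of an earlier MACS series, so the caller version is uncertain, and use of strand in calling is not given in the sources used here. The deposited fold enrichment is a ratio of IP to its input, with no scaling between libraries. The deposited score is minus 10 times log10 of a p-value, is exactly 3100 in 8003 peaks and higher in 296, and the deposited FDR is a percent. A further deposited table holds the authors' own group comparison (fold change, p-value, adjusted p-value and direction) and was not used. Read depth per library is unknown.

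Peaks of the 4 lists that overlap by at least 1 bp were merged into regions. Centres were placed on GENCODE M21 coding transcripts, with stop windows of 100 nt, and sequence was read from GRCm38.p6 (RefSeq). Near-identical copies were sought with blastn 2.17.0 at 95% identity and 90% coverage. Values per library were compared with exact permutation tests in Python 3.11.15 (numpy 2.4.6, pandas 2.3.3). The steps were tested on simulated data, where 10 of 10 quantities were recovered.

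The symbols, role lists, pathway list and markers were chosen with earlier results of these data known. Values in every library were given for regions called in all 4 libraries, for regions called in both libraries of 1 group alone and for Cdkn1b. Values of the regions called in fewer libraries and the detail on E2f7 were added after the values were seen. Alternatives were a minimum of 4-fold, an FDR under 20%, equal numbers of peaks (8974 per library), other overlap and gene rules, a replicate block, leaving out each library, and, chosen after seeing the data, fold enrichment divided by the library median. Whether libraries with the same replicate number form pairs is unknown. Over 2257 regions called in all 4, the deviations of same-numbered libraries correlated at r = -0.0173. This cannot show whether they shared an embryo or a day, and nothing in the labels ties a number to either. A result of the pathway list is not reported here.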

Additional observations from a re-analysis of the deposited data

How the results depend on the processing

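No difference between groups passed 0.05, which the design cannot reach, and 59 of 90 recomputed values neither reversed nor, for counts of regions, moved by over 1.5 times, though several differences changed in size. The cause of the changes was not tested. With peaks of at least 4-fold, starved minus control became -1 for peaks per library, 0.0025 for the median log2 fold enrichment and 0.12 for cell-cycle minus transcriptional genes. With an FDR under 20%, these became 0.57 for the median and 0.072 for the class difference, the GGAC share became 4.78 percentage points, the stop codon share went from 1.47 to 16.1 points (exact permutation test, p = 0.33), and 1 region stayed lower (Ccnl2, not Cdk12). The 4 regions found in the starved pair alone gave way to 1, in E2f7, and the 3 of the control pair to 2 others, in Cdk13 and Cdkn1c.

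Leaving out each library in turn gave -7.5 to 8.5 for peaks per library, -0.27 to 0.15 for the median, -0.91 to 0.53 for the class difference, -5.14 to 8.07 percentage points for the stop codon share and -8.52 to 5.89 for the GGAC share. Regions lower in both starved libraries numbered 3 to 5, higher ones 1 to 2, those called only in starved libraries 7 to 21 and only in control libraries 6 to 27. A group of 1 library passes these rules more easily: the 27 came without control 2, the 21 without starved 1, and the 8.5 and -7.5 without control 1 and control 2.

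With the replicate block, 4 regions were lower in starved libraries in both pairs, in place of 2; the block left the other values as they were, and its smallest exact sign-flip p is 0.5. Whether same-numbered libraries share more than a number is unknown (r = -0.0173). With fold enrichment divided by the library median, an alternative chosen after seeing the data, 3 regions were lower, Cdkn2b in addition. No value is behind depth, which is unknown, so a missing peak may lie just under the calling limits.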
